A study of Mus musculus with 6 samples.

Results

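Extracellular proteases of the matrix metalloproteinase (Mmp), ADAM (Adam) and ADAMTS (Adamts) families, and the tissue inhibitors of metalloproteinases (Timp), were followed in 2 populations of bone marrow stromal cells. Members were taken by gene symbol (Mmp, Adam or Adamts with a number, and Timp1 to Timp4), and 77 of the 19938 genes with a value belonged to the set: 22 Mmp, 33 Adam, 18 Adamts and 4 Timp genes. Mmp15 and Adamts2 were not analysed here, because no probe set named either of them alone.

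The cells were Cxcl12-abundant reticular (CAR) cells, marrow stromal cells that make large amounts of the chemokine Cxcl12 and lie close to blood-forming cells. They were sorted by flow cytometry from femur and tibia marrow of C57BL/6 mice at 7 weeks of age, all of genotype Dmp1-Cre Cxcl12-gfp/+, so both populations carried the Cre transgene and 1 green fluorescent Cxcl12 allele. One group held Dmp1-Cre targeted CAR cells and the other the non-targeted CAR cells, with 3 arrays each and 6 in all. Per the series' design text the cells came from 3 mice and the cells of 1 mouse made 1 sample. As there were 6 arrays, the 3 mice were either counted per group or gave both populations, and which is meant is not given. The Cre follows Dmp1, whose product is an acidic phosphoprotein of bone matrix made by osteocytes and mature osteoblasts. How targeted cells were recognised in the sort was not stated in the labels. Whether a targeted and a non-targeted array came from the same mouse is therefore not known here. The p-values below measure only the spread between these 6 arrays, which the main fit took as independent.

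MMPs are zinc-dependent enzymes that cleave collagens, proteoglycans and other matrix proteins, and in bone they take part in remodelling and in opening the marrow cavity. ADAMs are mostly membrane-bound and release cytokines, growth factors and receptor domains from the cell surface, while ADAMTS enzymes are secreted and act on proteoglycans, procollagens and fibrillin-rich matrix. TIMPs are secreted proteins that block the active site of these enzymes.

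Values are log2 RMA intensities, where RMA is a method that corrects, scales and summarises the probes of each probe set, and a difference of 1 is 2-fold. Differences are targeted minus non-targeted. Arrays correlated across genes at 0.955 to 0.981. All 10 CAR cell markers, among them Cxcl12, Lepr and Adipoq, were above the background described below, and their mean was 11.30 to 11.63 in the targeted and 11.53 to 11.86 in the non-targeted group. Of the 10, 9 were lower and 1 higher in targeted cells, with a median difference of -0.24. For Lepr (-0.49) all targeted arrays lay below the non-targeted ones, as for 5.76% of all genes tested. Dmp1 itself read 11.28, 10.03 and 9.89 in the targeted group and 7.51, 6.93 and 6.91 in the other. Targeted replicate 1 stood apart in its markers of other cells. The mean of 12 neutrophil markers was 6.15 there and 7.72 to 8.61 on the other 5 arrays, and the neutrophil gene S100a8 was at 6.97 there and at 11.31 to 11.97 elsewhere. Other defining neutrophil genes, Elane and Ly6g, were below background on average. For 8 osteoblast and osteocyte markers the mean was 10.37, 9.74 and 9.85 on targeted replicates 1, 2 and 3, and between 9.10 and 9.26 in the non-targeted group. Bglap, Bglap2, Runx2 and Spp1 were also chosen for this list but had no value. The list includes Dmp1. Without it the mean of the remaining 7 was 10.24, 9.70 and 9.85 against 9.41 to 9.51, and among them Phex (-0.22), Ibsp (0.05) and Sost (0.04) did not separate the groups. In bulk samples such as these, fewer cells of a type and less RNA per cell cannot be told apart. For many of the named members the difference without targeted replicate 1 is given too.

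Only some of these genes gave a signal above background. Background was set at 6.43, the 95th percentile of the mean log2 intensity of 1015 olfactory receptor genes, whose median was 4.74. By this limit 34 of the 77 members were above background: 10 of 22 Mmp, 4 of 4 Timp, 11 of 18 Adamts and 9 of 33 Adam genes. Of all 19938 genes with a value, 10895 were above the same limit. Judged on each array against that array's own limit, 6.30 to 6.603, 32 to 35 members were above it, and counts of arrays above background below use these limits. The members next to the limit were Mmp24, 0.05 above it, and Adam1a, 0.002 below it. With the 99th percentile of the same genes, 7.20, 25 members were above, and with the 95th percentile of 163 vomeronasal receptor genes, 5.50, there were 58. The number above background therefore depends on the reference chosen.

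The families differed in which of their functional groups were above background. Among the 4 genes grouped here as collagenases (Mmp1a, Mmp1b, Mmp8 and Mmp13), Mmp13 alone was above. Both gelatinases were above, and so were 4 of 5 membrane-type MMPs (Mmp14, Mmp16, Mmp17 and Mmp24). Of the stromelysins and matrilysin, Mmp11 was the 1 above of 4. Of the other MMPs, Mmp23 and Mmp28 were above and 5 of 7 were not, including Mmp12, the macrophage elastase, and Mmp20, an enzyme of tooth enamel. ADAMTS enzymes that cleave hyalectans, the large hyaluronan-binding proteoglycans, were above background in 5 of 7 cases. Both procollagen-processing enzymes with a value, Adamts3 and Adamts14, were above, as were 4 of the 9 remaining ADAMTS genes (Adamts7, Adamts10, Adamts12 and Adamts17). Adamts3 was above by the brightest of its 16 probe sets, whose means ran from 8.11 down to 3.87. Of the ADAMs with a catalytic motif that are expressed outside the testis, 8 of 9 were above background, the exception being Adam28. Of 3 ADAMs without such a motif, Adam11 was above and Adam22 and Adam23 were not. The 21 ADAMs not listed in either of these groups were put together as testis and sperm ADAMs. None of them was above, with means from 3.19 for Adam26a to 6.43 for Adam1a.

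**Figure D1:**
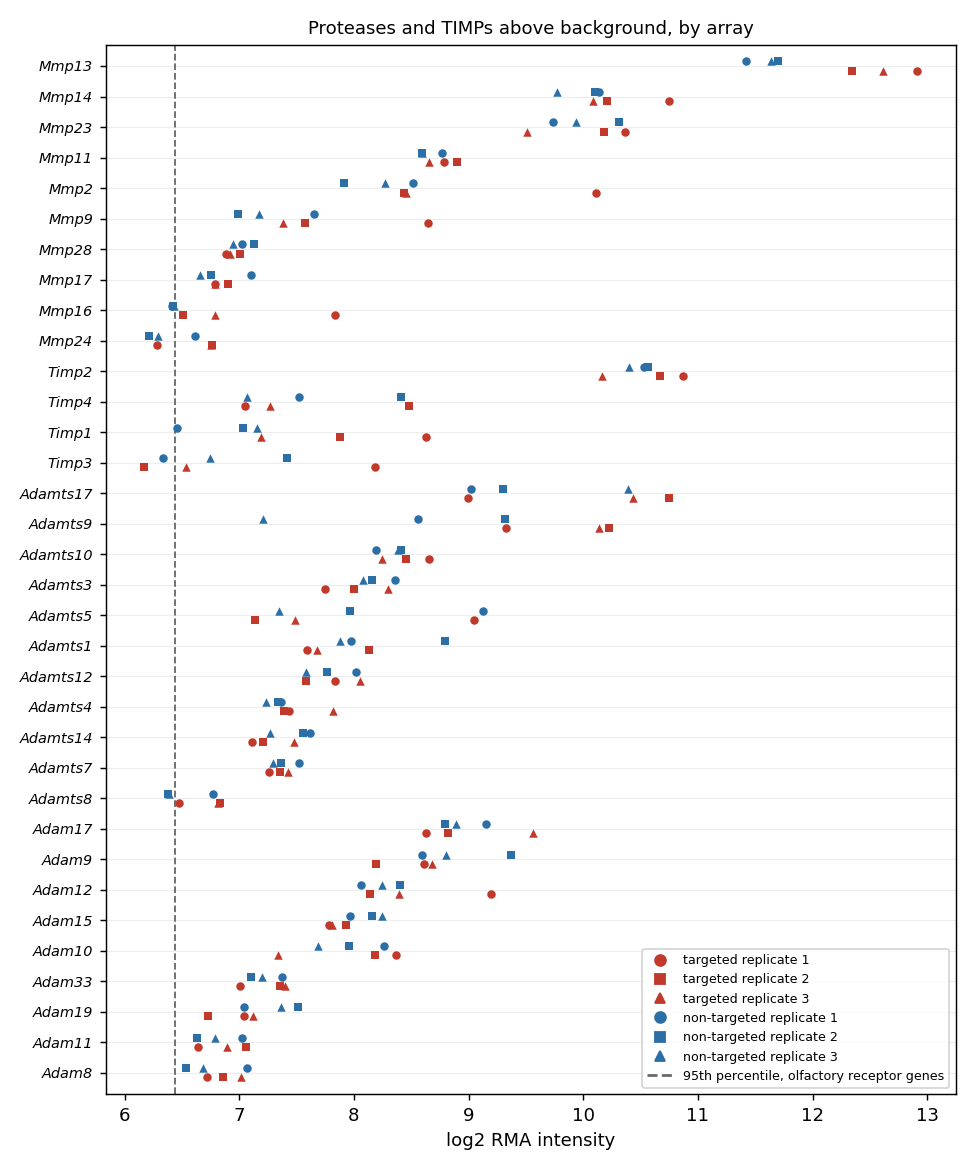
Log2 RMA intensity (horizontal axis) of the 34 members above background on each of the 6 arrays, by family; red marks are targeted and blue marks non-targeted arrays, circles, squares and triangles are replicates 1, 2 and 3, and the dashed line is the background limit of 6.43. The 3 red marks of Mmp13 (12.35 to 12.91) lie to the right of its 3 blue marks (11.42 to 11.70), whereas the marks of most other members overlap.

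Between the populations, no member passed the test. Of the 77 members, 46 passed the filter on dim genes (mean above 6.00) and entered the limma fit over 13292 genes, and 31 were dim. At an adjusted p under 0.05, 0 of the 46 were called, as were 0% of all genes tested. The smallest adjusted p of a member was 0.701, for Mmp13, which ranked 11 by p among the 13292 genes, against 0.384 for Dmp1 over all genes. At an unadjusted p under 0.05, 3 members were higher in targeted cells (Mmp13, Adamts9 and Timp1), where 1.35% of all genes tested were, and 0 members were lower, where 3.42% of all genes were.

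For 6 of the 46 tested members the groups had no overlap. All 3 targeted arrays lay above all 3 non-targeted arrays for 5 members (10.9%), Mmp13, Adamts9, Timp1, Mmp16 and Adamts4, while 3.32% of all genes tested did so. All 3 lay below for 1 member (2.17%), Adam15, against 5.76% of all genes. Over all 77 members, dim ones included, Adamts6 made 6 that lay above, against 3.75% of all 19938 genes, and Adam15 stayed the 1 that lay below, against 4.32%. Adamts6 was below background on every array. Without targeted replicate 1, 9 of 47 tested members lay above, against 13.6% of all genes, and 2 lay below, against 13.9%. Other scalings of the arrays kept Mmp13, Adamts9 and Adam15 apart in the same direction. Adamts4 and Timp1 overlapped under median scaling, and Mmp16 under quantile and cyclic loess scaling. Mmp7 lay above under quantile and cyclic loess scaling, and Mmp25 lay below under cyclic loess.

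Direction was mixed across the set. Of the tested members 28 were higher and 18 lower in targeted cells, with a median log2 difference of 0.05, beside 6499 higher and 6793 lower with a median of -0.01 over all genes tested. The Mmp family had 9 higher and 4 lower with a median of 0.19, and the Timp family 3 higher and 1 lower with a median of 0.10. In the Adamts family 9 were higher and 5 lower, with a median of 0.05, and in the Adam family 7 were higher and 8 lower, with a median of -0.01. These counts include members near background.

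**Figure D2:**
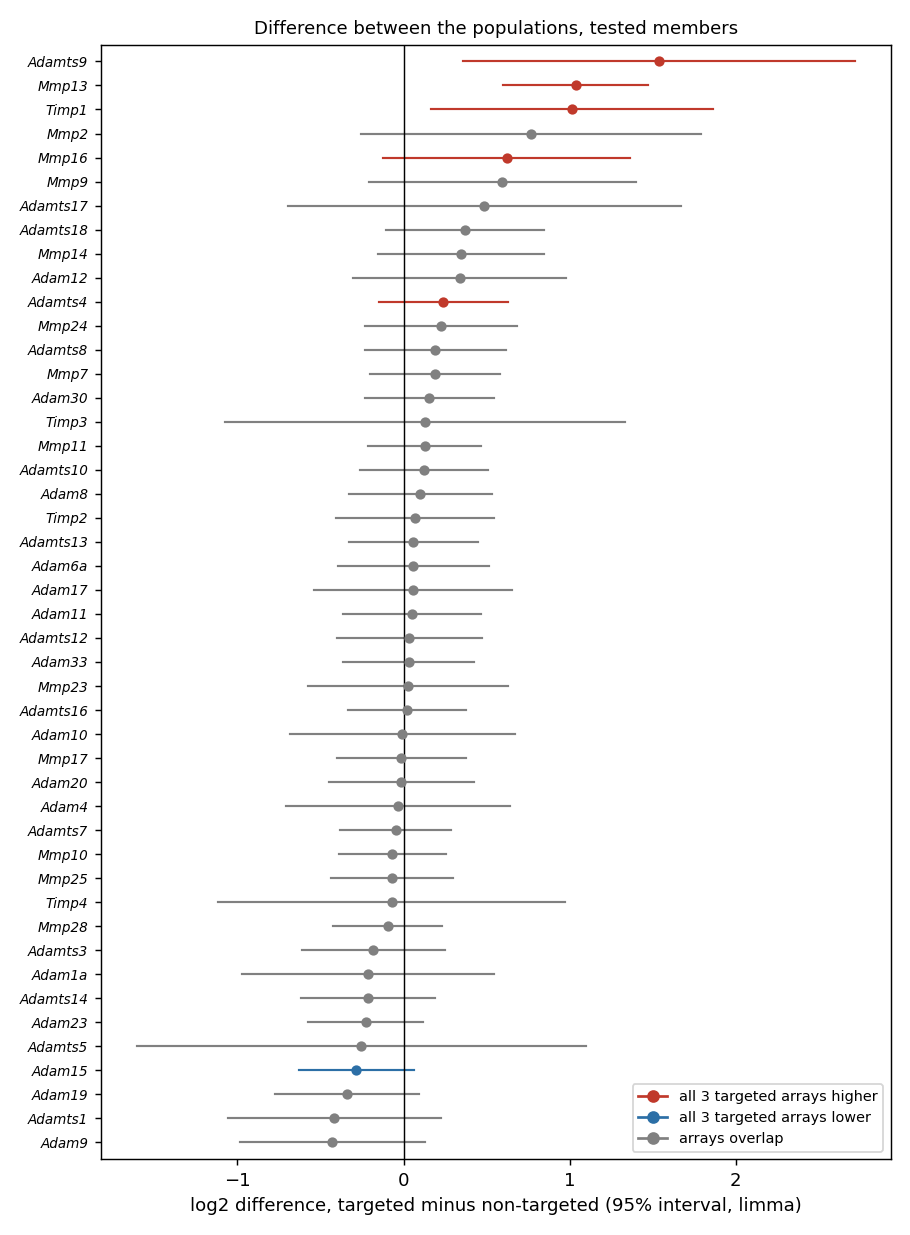
Log2 difference, targeted minus non-targeted (horizontal axis), with its 95% interval from limma for the 46 tested members, in order of the difference; red marks members whose 3 targeted arrays all lie above the non-targeted ones, blue those whose 3 lie below, grey those that overlap. The intervals of Adamts9, Mmp13 and Timp1 lie above 0, before any adjustment for the number of genes tested, and all other intervals include 0.

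Mmp13 was the 1 gene above background in the group of collagenases listed above, and the member with the smallest p. Its product, collagenase 3, cuts fibrillar collagen and is made by hypertrophic chondrocytes and osteoblasts. The targeted arrays read 12.91, 12.35 and 12.62 and the non-targeted arrays 11.42, 11.70 and 11.64 (probe set 10583044). The lowest targeted array was thus above the highest non-targeted one, and the means were 12.62 ± 0.28 and 11.59 ± 0.15 (SD, n = 3 each). The means were thus 2.05-fold apart, a difference of 1.04 on the log2 scale (SE 0.19, 95% interval 0.60 to 1.47, adjusted p = 0.701 in limma). Without targeted replicate 1, which was the highest array, the difference was 0.89 or 1.86-fold, and leaving out each array in turn gave 0.89 to 1.18. The osteoblast marker list was also higher on all 3 targeted arrays, as given above, and its part in the difference was not tested.

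In the RefSeq gene order Mmp13 opens a run of 10 neighbouring Mmp genes on chromosome 9, followed by Mmp12, Mmp1b, Mmp3, Mmp1a, Mmp10, Mmp8, Mmp27, Mmp20 and Mmp7. Mmp13 was above background on 6 of 6 arrays and the other 9 on 0 of 6. Mmp8, the collagenase of neutrophil granules, read 5.24, 5.78 and 6.23 on the targeted and 5.52, 6.27 and 5.63 on the non-targeted arrays, all under the limit. Mmp1a and Mmp1b, the mouse counterparts of the human interstitial collagenase, had means of 4.09 and 3.94 over the 6 arrays. The stromelysins Mmp3 and Mmp10, which cleave many non-fibrillar matrix proteins, had means of 5.72 and 6.12, and matrilysin, Mmp7, had a mean of 6.10. Each of these genes was read by 1 probe set.

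**Figure D3:**
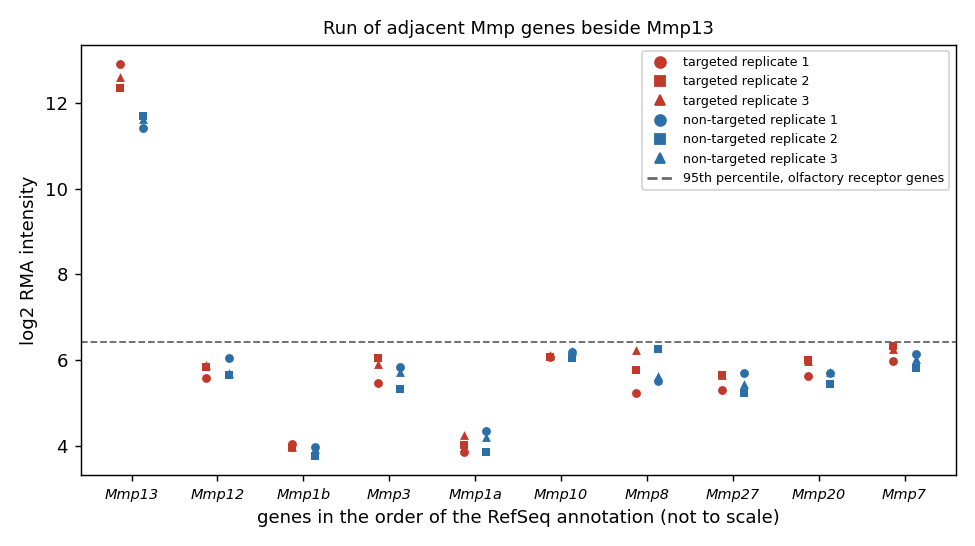
Log2 RMA intensity (vertical axis) on the 6 arrays of the 10 neighbouring Mmp genes of chromosome 9, in RefSeq gene order and not to scale; red marks are targeted and blue marks non-targeted arrays, with shapes for the replicates, and the dashed line is the background limit of 6.43. All marks of Mmp13 lie at 11.42 or above, and every mark of the other 9 genes lies under the line.

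Promoter sequence is shown for Mmp13 and the 4 genes that follow it, because their windows hold the same motif while only Mmp13 gave signal. Windows of 300 bases, 250 before and 50 after each RefSeq start (GRCm38.p6), were searched for 3 motifs. These were the AP-1 site TGAGTCA and the RUNX site TGTGGT on both strands (TGACTCA and ACCACA on the other strand) and the TATA box TATAAA on the gene's strand. The matches did not overlap one another in the sequences printed here. AP-1 (Fos and Jun proteins) and Runx2 are known regulators of Mmp13 in osteoblasts and chondrocytes. Capitals mark the matches, and each sequence runs 5′ to 3′ on the gene's strand and ends at the base before the start. Mmp13 is given from position -150 (chr9:7272364-7272513, plus strand), and the others from -100: Mmp12 (chr9:7347274-7347373, plus), Mmp1b (chr9:7388027-7388126, minus), Mmp3 (chr9:7445722-7445821, plus) and Mmp1a (chr9:7464041-7464140, plus).
Mmp13: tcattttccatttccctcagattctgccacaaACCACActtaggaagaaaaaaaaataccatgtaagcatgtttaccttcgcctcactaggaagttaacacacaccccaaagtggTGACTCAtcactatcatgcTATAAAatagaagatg
Mmp12: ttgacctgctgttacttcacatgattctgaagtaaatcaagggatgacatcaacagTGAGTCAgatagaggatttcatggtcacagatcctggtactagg
Mmp1b: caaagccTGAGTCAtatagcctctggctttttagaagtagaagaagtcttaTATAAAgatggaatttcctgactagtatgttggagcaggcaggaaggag
Mmp3: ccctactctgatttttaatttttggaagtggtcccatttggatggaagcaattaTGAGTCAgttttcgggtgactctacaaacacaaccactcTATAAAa
Mmp1a: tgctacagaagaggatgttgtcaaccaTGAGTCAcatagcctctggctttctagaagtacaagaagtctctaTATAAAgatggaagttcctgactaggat

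The Mmp13 window held all 3 motifs, with first bases at -118 for RUNX, -35 for AP-1 and -16 for TATA. AP-1 matches began at -44 in Mmp12, -93 in Mmp1b, -46 in Mmp3 and -73 in Mmp1a. In the whole run of 10 genes, 7 had an AP-1 match, 4 a RUNX match and 8 a TATA match, and 2 (Mmp13 and Mmp1b) had all 3 in 1 window. Of all 32851 RefSeq promoter windows, 5.20% held the AP-1 letters, 16.8% the RUNX letters and 8.32% the TATA letters, and 0.125% held all 3. Among members above background with a window that was used, 2 of 21 genes held an AP-1 match, 5 a RUNX match and 2 a TATA match. These 21 genes had 24 windows. The member counts are of genes with a match in any window, while the shares over all promoters are of single windows. The AP-1 letters were thus present both in the gene with signal and in neighbours without it, and a match is a description of the letters and not a bound site.

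Both gelatinases were above background, and their differences came largely from targeted replicate 1. Gelatinases degrade denatured collagen and the type IV collagen of basement membranes. Mmp2, which is made by many stromal cells, read 10.11, 8.44 and 8.45 on the targeted and 8.51, 7.91 and 8.27 on the non-targeted arrays. The first targeted array lay 1.79 above the mean of the other 5, and the remaining targeted arrays lay within the range of the non-targeted ones. The difference was 0.77 (95% interval -0.26 to 1.79), and 0.21 without targeted replicate 1. Mmp9, which neutrophils store in granules and osteoclasts secrete, read 8.65, 7.57 and 7.38 against 7.66, 6.99 and 7.17. Its difference was 0.59 (95% interval -0.21 to 1.4), and 0.20 without targeted replicate 1. The array with the highest Mmp9 was the one with the lowest neutrophil marker mean. Osteoclast markers, 3 of 7 above background, had means of 6.04 to 6.11 on the targeted and 5.95 to 6.01 on the non-targeted arrays, and of the 3 above background Ctsk was highest on targeted replicate 1 (8.51), Ocstamp was lowest there (6.25) and Acp5 lay within the range of the other arrays (6.63). The part of these cells in the Mmp9 values was not tested.

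Of the membrane-type MMPs, Mmp14 and Mmp16 leaned towards the targeted cells without passing the test. Mmp14 encodes MT1-MMP, a surface collagenase that also activates the Mmp2 proenzyme together with Timp2. It read 10.75, 10.21 and 10.08 against 10.14, 10.10 and 9.77, so 1 targeted array lay within the non-targeted range. The difference was 0.34 (SE 0.21, 95% interval -0.15 to 0.84), and 0.14 without targeted replicate 1. Mmp16, encoding MT3-MMP, read 7.83, 6.51 and 6.79 against 6.42, 6.42 and 6.43. The non-targeted arrays of Mmp16 were all just under the overall limit of 6.43 and the targeted arrays above it, although by each array's own limit 3 of the 6 arrays were above background. The difference of 0.62 (SE 0.32, 95% interval -0.12 to 1.36) was 0.22 without targeted replicate 1. Mmp25, encoding the MT6-MMP of neutrophils, was under the limit on all 6 arrays, at 6.03 to 6.30 against 6.11 to 6.39. Mmp17 and Mmp24 had differences of -0.01 and 0.23, with overlapping arrays.

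Mmp11 and Mmp23, which furin-type proteases cleave inside the secretory pathway, were clearly above background and close between the populations. Mmp11, or stromelysin 3, read 8.79, 8.90 and 8.66 on the targeted and 8.77, 8.60 and 8.60 on the non-targeted arrays (difference 0.13, 95% interval -0.22 to 0.47). Mmp23, which is released from the membrane when it is processed, read 10.37, 10.18 and 9.51 against 9.74, 10.31 and 9.94 (difference 0.03, 95% interval -0.58 to 0.63). The sign for Mmp23 turned in some leave-one-out fits, which ran from -0.15, the value without targeted replicate 1, to 0.28. Mmp28, or epilysin, differed by -0.10 with overlapping arrays.

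All 4 TIMP genes were above background, and Timp1 was the 1 whose arrays did not overlap. Timp1 encodes a secreted inhibitor of most MMPs that also binds the Mmp9 proenzyme. It read 8.63, 7.88 and 7.19 on the targeted and 6.45, 7.03 and 7.16 on the non-targeted arrays (probe set 10598976). The targeted arrays spread widely, the lowest of them was only just above the highest non-targeted one, and 5 of the 6 arrays were above background. Means were 7.90 ± 0.72 and 6.88 ± 0.38 (SD, n = 3 each), 2.02-fold apart, or 1.01 on the log2 scale (SE 0.36, 95% interval 0.17 to 1.86, adjusted p = 0.970 in limma). Without targeted replicate 1 the difference was 0.65 or 1.57-fold.

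The other TIMPs showed no such separation. Timp2, which binds Mmp14 and the Mmp2 proenzyme, read 10.87, 10.67 and 10.16 against 10.53, 10.56 and 10.40 (difference 0.07, 95% interval -0.41 to 0.55, and -0.082 without targeted replicate 1). Timp3, a matrix-bound inhibitor that also acts on Adam17 and on ADAMTS aggrecanases, read 8.18, 6.17 and 6.54 against 6.33, 7.42 and 6.75. Only 3 of its arrays were above background, and its difference of 0.13 (95% interval -1.07 to 1.33) became -0.48 without targeted replicate 1. Timp4 read 7.05, 8.48 and 7.27 against 7.52, 8.41 and 7.07 (difference -0.07, 95% interval -1.12 to 0.97, and 0.20 without targeted replicate 1). For Timp3 and Timp4 the SD within each group was larger than the difference between the groups.

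Among the ADAMTS enzymes that cleave hyalectans, Adamts9 had the largest difference of any tested member when read by its brightest probe set. Adamts9 is a secreted enzyme that cleaves versican and aggrecan. Its brightest probe set (10546450) read 9.32, 10.23 and 10.14 on the targeted and 8.56, 9.32 and 7.21 on the non-targeted arrays. The lowest targeted array and the highest non-targeted one were level to the second decimal, and non-targeted replicate 3 was far below the other arrays. Means were 9.90 ± 0.50 and 8.36 ± 1.07 (SD, n = 3 each), 2.90-fold apart, or 1.54 on the log2 scale (SE 0.51, 95% interval 0.36 to 2.72, adjusted p = 0.947 in limma). Leaving out each array in turn gave 0.96 to 2.01, the lowest without non-targeted replicate 3, the array at 7.21. The 6 probe sets that name Adamts9 alone were all higher in targeted cells, by 0.04 to 1.54, and in 3 of them the arrays did not overlap. Their mean gave a difference of 0.83 (adjusted p = 0.657 in limma), which was smaller than that of Mmp13 (1.04) or Timp1 (1.01).

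Adamts4, an aggrecanase, read 7.44, 7.39 and 7.82 on the targeted and 7.36, 7.34 and 7.23 on the non-targeted arrays. Its arrays did not overlap, with a small difference of 0.24 (SE 0.17, 95% interval -0.15 to 0.63) that was 0.10 without targeted replicate 3. Adamts5, the other main aggrecanase, read 9.04, 7.14 and 7.49 against 9.13, 7.96 and 7.35. It was high in replicate 1 of both groups, its groups overlapped, and its difference was -0.25 (95% interval -1.61 to 1.10), or -0.83 without targeted replicate 1. Adamts1, which lies next to Adamts5 on chromosome 16 and also cleaves versican, read 7.59, 8.13 and 7.68 against 7.98, 8.79 and 7.88 (difference -0.42, 95% interval -1.06 to 0.22, and -0.13 without non-targeted replicate 2). Hyalectan-cleaving enzymes thus did not share a direction: of the 5 tested, 3 were higher and 2 lower. Adamts15 and Adamts20 were dim and were not tested.

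The tested ADAMTS genes outside that group had overlapping arrays. Adamts3, which removes the amino-terminal propeptide of procollagens, read 7.74, 8.004 and 8.30 on the targeted and 8.36, 8.16 and 8.08 on the non-targeted arrays (difference -0.18, 95% interval -0.61 to 0.25, and -0.045 without targeted replicate 1). Its 16 probe sets divided into 8 higher and 8 lower, with differences from -0.83 to 0.73, and in 1 of them the targeted arrays all lay below the non-targeted ones. Adamts17, which acts on fibrillin-rich matrix, read 8.99, 10.75 and 10.43 against 9.03, 9.30 and 10.39. In it the first targeted array was the lowest of all 6, and the difference of 0.49 (95% interval -0.70 to 1.67) was 1.02 without that array and 0.14 without targeted replicate 2. Of its 5 probe sets 4 were higher and 1 was lower, by -0.14. Adamts10, another enzyme of fibrillin matrix, read 8.65, 8.46 and 8.25 against 8.19, 8.41 and 8.39 (difference 0.12, and 0.022 without targeted replicate 1). Adamts7 and Adamts12, which cleave cartilage oligomeric matrix protein, differed by -0.05 and 0.03, and Adamts14, the second procollagen-processing enzyme, by -0.22.

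**Figure D4:**
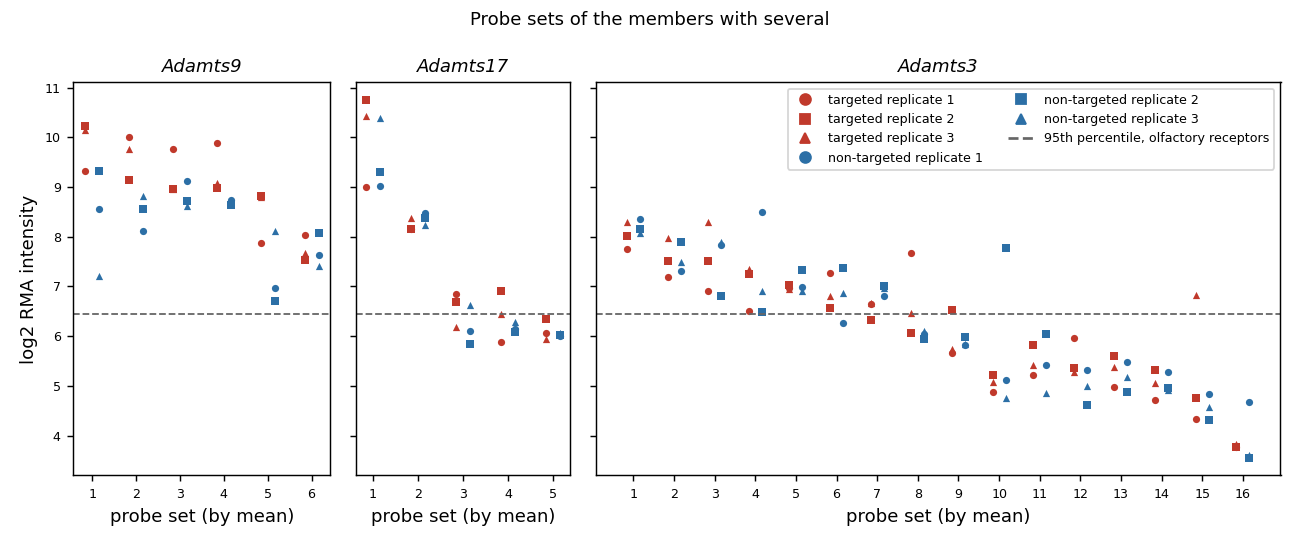
Log2 RMA intensity (vertical axis) on the 6 arrays of every probe set that names Adamts9, Adamts17 or Adamts3 alone, ordered by mean along the horizontal axis; red marks are targeted and blue marks non-targeted arrays, with shapes for the replicates, and the dashed line is the background limit of 6.43. All 6 probe sets of Adamts9 are above the line and higher on average in targeted cells, while those of Adamts3 run from means of 8.11 down to 3.87 with 8 in each direction.

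The sheddases Adam10 and Adam17 were above background on all 6 arrays and differed little between the populations. Both release many surface proteins, Adam10 being the enzyme that cleaves Notch receptors on ligand binding and Adam17 the one that releases tumour necrosis factor. Adam10 read 8.37, 8.18 and 7.33 on the targeted and 8.26, 7.96 and 7.69 on the non-targeted arrays (difference -0.01, 95% interval -0.68 to 0.67, and -0.21 without targeted replicate 1). Adam17 read 8.63, 8.82 and 9.56 against 9.15, 8.79 and 8.89 (difference 0.06, 95% interval -0.54 to 0.65, and 0.25 without targeted replicate 1). For both genes the groups overlapped fully.

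Adam15 was the 1 tested member whose targeted arrays all lay below the non-targeted ones. Its product carries an integrin-binding disintegrin domain beside the protease. Targeted arrays read 7.78, 7.93 and 7.81 and non-targeted arrays 7.97, 8.16 and 8.24 (probe set 10499560), with means of 7.84 ± 0.08 and 8.12 ± 0.14 (SD, n = 3 each). The log2 difference was -0.28 (SE 0.15, 95% interval -0.63 to 0.06, adjusted p = 1.00 in limma), and leaving out each array in turn gave -0.36 to -0.22. Adam9, a widely expressed sheddase, read 8.61, 8.19 and 8.68 against 8.59, 9.37 and 8.80 (difference -0.43, 95% interval -0.99 to 0.13, and -0.21 without non-targeted replicate 2). Adam19, also known as meltrin beta, read 7.05, 6.73 and 7.12 against 7.05, 7.51 and 7.36 (difference -0.34, 95% interval -0.77 to 0.09). These had the lowest differences among the ADAMs, and the arrays of Adam9 and Adam19 overlapped. Adam9 closes a run of 5 neighbouring ADAM genes on chromosome 8, in which it was above background on 6 arrays and Adam18, Adam3, Adam5 and Adam32 on 0.

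Adam12, or meltrin alpha, which is found in mesenchymal cells including osteoblast precursors, read 9.20, 8.14 and 8.39 against 8.07, 8.40 and 8.24. Its difference of 0.34 (95% interval -0.30 to 0.98) was 0.03 without targeted replicate 1. Adam33, a gene of mesenchymal cells, read 7.01, 7.36 and 7.40 against 7.37, 7.10 and 7.20 (difference 0.03, and 0.15 without targeted replicate 1). Adam8, which leukocytes express, read 6.72, 6.86 and 7.01 against 7.07, 6.54 and 6.69 (difference 0.10, 95% interval -0.33 to 0.53). None of these 3 genes had separated arrays.

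Targeted replicate 1 held the highest value for 12 of the 34 members above background (35.3%), against 16.8% of all genes tested. In 8 of the 12 it lay more than 0.6 above the mean of the other 5 arrays: Mmp2 by 1.79, Timp3 by 1.54, Timp1 by 1.49, Mmp16 by 1.32, Mmp9 by 1.30, Mmp13 by 0.96, Adam12 by 0.95 and Mmp14 by 0.69. The same array was the lowest of the 6 for 10 of the 34 members (29.4%), against 24.2% of all genes tested. The members here were those above 6.43 and the genes tested those above 6.00, so the shares compared are not of like sets. The osteoblast list was highest and the neutrophil list lowest on that array, and the part of either in these values was not tested. On replicates 2 and 3 alone, chosen after the data were seen, the members' median log2 difference was 0.15, and that of all genes tested was 0.0027.

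**Figure D5:**
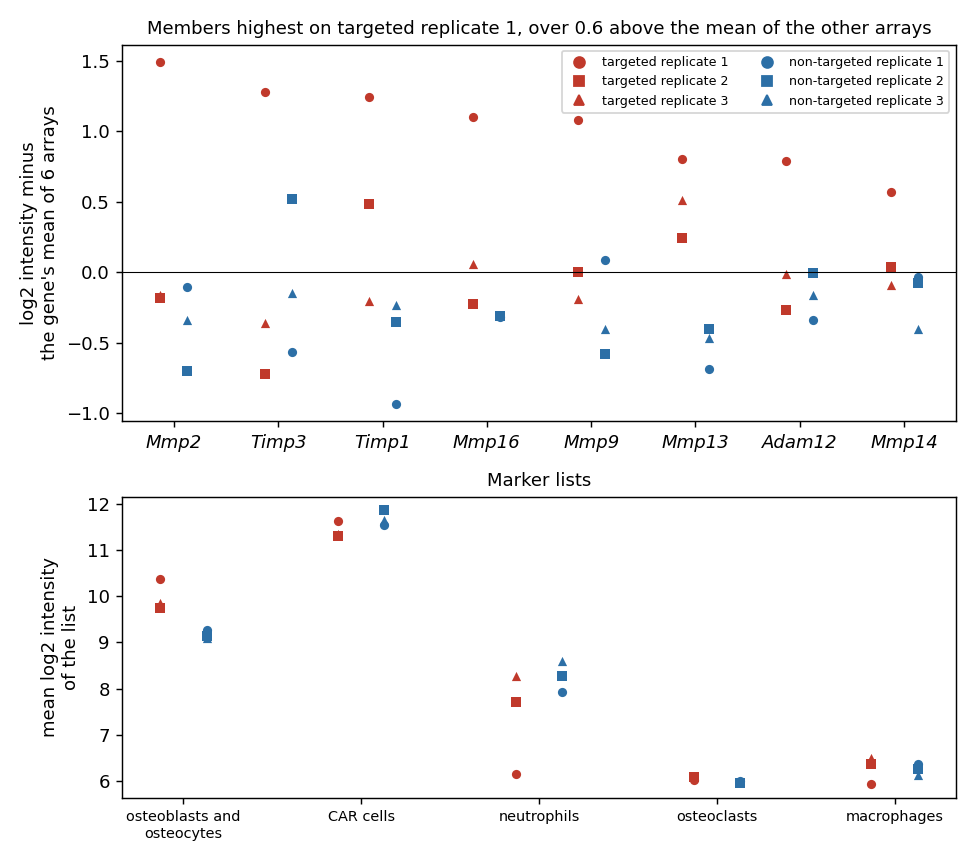
Upper panel: log2 intensity minus the gene's mean over 6 arrays (vertical axis) for the 8 members above background in which targeted replicate 1 was the highest array and lay more than 0.6 above the mean of the other 5. Lower panel: mean log2 intensity of 5 marker lists on each array; red marks are targeted and blue marks non-targeted arrays, with shapes for the replicates. The red circle, targeted replicate 1, is at the top for each of the 8 members, at the top of the osteoblast list (10.37) and at the bottom of the neutrophil list (6.15).

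Of 63 tested genes in 4 lists of the wider protease system, 2 had all targeted arrays above the non-targeted ones (3.17%) and 4 had all below (6.35%). These shares were close to the 3.32% and 5.76% of all genes tested. Of 21 regulators with a value, 17 were tested, 7 higher and 10 lower with a median of -0.02, and 0 were called. Reck, a membrane-anchored MMP inhibitor, read 9.36, 8.48 and 9.27 against 9.13, 9.22 and 9.07 (difference -0.11, and -0.27 without targeted replicate 1). Furin, which activates many of these proenzymes, differed by 0.08, or -0.059 without that array. Rhbdf1 encodes iRhom1, which escorts Adam17 to the cell surface. It read 7.65, 7.73 and 7.49 on the targeted and 7.82, 7.94 and 8.10 on the non-targeted arrays, a non-overlapping difference of -0.33 (SE 0.15, 95% interval -0.69 to 0.02). Sfrp1, a secreted Wnt antagonist, differed by -0.48 (-0.89 without targeted replicate 1) and Tfpi2, a serine protease inhibitor, by -0.17, both with overlapping arrays.

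Of 11 tested ADAMTS-like and astacin proteins, 6 were higher and 5 lower, with a median of 0.01. Adamtsl3, an ADAMTS-like protein without a protease domain, read 8.26, 7.07 and 7.18 against 8.46, 8.58 and 8.14 (difference -0.89, SE 0.32, adjusted p = 0.970 in limma). Adamdec1 and Adamtsl5 differed by -0.24 and -0.23. Of 12 tested proteases of other classes, 5 were higher and 7 lower, with a median of -0.02. Prss23, a secreted serine protease, read 7.71, 7.60 and 7.47 against 7.86, 8.29 and 8.26, and all targeted arrays were lower (difference -0.54, SE 0.17, adjusted p = 0.947 in limma). Hyal2, a hyaluronidase, was also lower on every targeted array (difference -0.29), and Phex, an endopeptidase of osteoblasts and osteocytes, differed by -0.22 with overlap.

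Among 23 tested substrates 11 were higher and 12 lower, with a median of -0.03. Vcan encodes versican, a hyalectan cut by Adamts1, Adamts4, Adamts5 and Adamts9. It read 8.65, 8.26 and 7.89 on the targeted and 7.39, 7.42 and 7.40 on the non-targeted arrays, with no overlap (difference 0.87, SE 0.21, 95% interval 0.39 to 1.35, adjusted p = 0.734 in limma). Col1a1, a chain of type I collagen and thus a substrate of collagenases, read 10.93, 9.10 and 9.34 against 8.91, 8.46 and 8.74 (difference 1.08, SE 0.45). It too was highest on targeted replicate 1, and the difference was 0.51 without that array. Thbs1, encoding thrombospondin 1, differed by -0.36 with overlapping arrays. Thbs2, its close relative, was the 1 substrate whose targeted arrays all lay below the non-targeted ones (8.20, 8.60 and 8.39 against 8.71, 8.78 and 8.66, difference -0.32), and it is named after its values were seen. Acan, encoding aggrecan, was below background.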

How the data were processed

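The deposited values were linear array intensities per probe set, and the submitters' processing notes name RMA and Affymetrix Expression Console 1.4 as the authors' tools. Which annotation and build they used is not given in the sources used here. The log2 of each value was taken. There were 35556 probe sets, and median intensities of 79.4 to 87.5 per array. Probe sets were named through the platform annotation, with symbols updated by Entrez ID in RefSeq (GRCm38.p6; 21698 of 21789 matched). Probe sets naming 1 gene were used (1621 named several and 12146 were unlisted), with the highest mean over 6 arrays kept for each of 999 genes with several. The lowest 33.3% of gene means, up to 6.00, were left out as dim. The other 13292 genes were tested with lmFit and eBayes of limma 3.58.1 (R 4.3.3; two-sided, no covariate), with Benjamini-Hochberg adjustment over all of them and a threshold of 0.05. SE and 95% intervals are limma's, and each SD is over the 3 arrays of 1 group. The procedure was tested on simulated data with independent noise, and how often it calls differences as small as the members' is not given here. No detection calls were used, and precision is limited by the number of arrays.

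The members, gene lists and rules were chosen with earlier results of these data known. Named genes were the 6 brightest of the Mmp, Adam and Adamts families, all Timp genes, tested members with non-overlapping arrays, the 3 largest differences per family, and Mmp8, Mmp9, Mmp25 and Adam8; of each pathway list, up to 3 genes by smallest p, with Reck and Furin. Others are given by their counts or a single value. The groups share replicate numbers, but the labels do not tie a number to a mouse, so the number entered only as an alternative. The other alternatives were filters, scalings, variance models, array weights, the mean of probe sets, other background references, each array left out in turn, and replicates 2 and 3 alone, the last added after seeing the data. RefSeq promoter windows were used for 47 of the 77 members. Windows on a single chromosome were left out of the member counts but kept in the shares over all promoters. Figures were drawn with matplotlib 3.10.9.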

Additional observations from a re-analysis of the deposited data

How the results depend on the processing

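With 3 arrays per group, 0 members were called in any fit, and the lowest adjusted p of a named member was 0.122, for Mmp13 with array weights (limma); over all alternatives that of Mmp13 ran from 0.122 to 1. Over all genes 0 were called, except 1 (Dmp1) with array weights and 1 (Dmp1) with a fixed replicate block, while a random replicate block called 0. Deviations of same-numbered arrays from their group means correlated at -0.256, -0.124 and 0.065, and those of other pairs at -0.264 to 0.325. Because they are centred within groups of 3 arrays, they cannot show whether arrays share a mouse. The numbers were not taken to pair the samples, because the labels do not tie a number to a mouse. Of 485 alternative values of 27 named members, 449 kept their direction and 36 reversed, and 14 members, among them Mmp13, Timp1, Adamts9, Adamts4, Mmp16 and Adam15, never reversed.

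Without the dim filter 46 members were higher and 31 lower, because all 77 enter. The members' median was 0.15 with array weights and 0.15 on replicates 2 and 3 alone. Under cyclic loess 2 of 46 tested members had non-overlapping arrays on the lower side, where 5.25% of all genes tested did. Under median scaling 3 of 46 had them on the higher side, where 4.26% of all genes tested did. With vomeronasal receptor genes as reference 58 members were above background. Adam10 reversed to 0.018 under quantile scaling, 0.051 under cyclic loess and 0.14 with array weights. Timp4 reversed to 0.027 under quantile scaling and 0.61 with array weights, Timp3 to -0.18 with array weights, and Adamts3 to 0.030 for the mean of its probe sets. On replicates 2 and 3 alone, Timp2 (-0.065), Mmp23 (-0.28), Adam12 (-0.059), Adamts10 (-0.049), Adamts3 (0.036), Timp4 (0.13), Timp3 (-0.73) and Mmp25 (0.038) reversed; the cause was not tested.

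Leaving out each array in turn, 0 genes and 0 members were called, the median was 0.014 to 0.14, 24 to 32 members were higher and 15 to 23 lower, and 34 to 35 were above background. With 5 arrays, 5 to 13 members had non-overlapping arrays on the higher side and 2 to 4 on the lower side, since fewer arrays overlap less often. The 13 were without non-targeted replicate 1, where 9.05% of all genes tested lay on the higher side. Without targeted replicate 1, 2 members lay on the lower side, where 13.9% of all genes tested did. The ranges that crossed 0 were those of Timp2 (-0.082 to 0.27), Mmp23 (-0.15 to 0.28), Adam17 (-0.22 to 0.25), Adamts5 (-0.83 to 0.24), Adam10 (-0.21 to 0.31), Timp4 (-0.51 to 0.30), Adam33 (-0.042 to 0.15), Timp3 (-0.48 to 0.53), Adam8 (-0.011 to 0.25) and Mmp25 (-0.15 to 0.014).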

Other observations

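Members that neighbour one another in the RefSeq gene order, with at most 2 other genes between them, formed 10 runs. Besides the Mmp run of chromosome 9 and the Adam9 run of chromosome 8, Adamts1 and Adamts5 on chromosome 16 were both above background. Of the pair Adamts15 and Adamts8 on chromosome 9, Adamts8 was above background on 5 arrays and Adamts15 on 1. The other 6 runs held ADAM genes of the group named testis and sperm ADAMs, with Adam28 near Adam7 in 1 of them, and no member above background.

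Probe sets that name a member together with other genes were left out, and there were 2. The one naming Adam4 with Gm4787 read 4.87 to 5.30, and the one naming Adam26a, Adam26b and Adam34 with other genes read 4.77 to 5.34, all under the background limit.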
